A study of Mus musculus with 6 samples.

Results

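Neurotransmitter receptors of the embryonic mouse cortex were followed through 85 of the 21766 probes of a spotted oligonucleotide array, which stand for 74 of its 15063 named genes. The probes were chosen by gene symbol: ionotropic glutamate subunits, metabotropic glutamate receptors, GABA receptor subunits, glycine receptor subunits, nicotinic and muscarinic acetylcholine receptors, and the serotonin, dopamine and adrenergic receptors. By transmitter there were 20 probes for glutamate, 19 for GABA, 3 for glycine, 19 for acetylcholine, 15 for serotonin, 7 for dopamine and 2 for noradrenaline. Channel subunits took 53 of the probes and G protein-coupled receptors 31. The remaining probe was that of Grid2ip (delphilin), which matches the symbols but is a scaffold that binds a delta receptor and no receptor itself, so the name of the set holds for the rest.

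The arrays asked which transcripts differ in the E12.5 cortex of mouse embryos that lack the working, paternal copy of Mest (Peg1), an imprinted gene of the alpha/beta hydrolase fold family. The mutants were 6 single cortices (mutants 1, 3, 4, 5, 6 and 7) of embryos with wild-type mothers, whose fathers passed on an allele with a LacZ insertion and without exons 3 to 8; the maternal allele was intact but is silent through imprinting. The references were 3 wild-type cortices (wild types 2, 8 and 9), each hybridised against 2 of the mutants on two-colour arrays. The mutant carried the dye Cy5 on the arrays of mutants 3, 5 and 6 and the dye Cy3 on those of mutants 1, 4 and 7. The array of mutant 3 is labelled with wild type 1, which the design does not list, and was read as wild type 2. The mutation is present in every cell of the embryo, and a cortex at this stage holds progenitors, young neurons, vessels, blood and adjoining tissue together.

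Receptors for neurotransmitters fall into ion channels, which open when the transmitter binds, and G protein-coupled receptors, which act through second messengers. In the embryonic cortex, GABA and glycine depolarise young neurons because of their high internal chloride, and GABA, glutamate, acetylcholine and serotonin are known to act on progenitor division and neuron migration before synapses form. Many receptor genes are still weakly expressed in the mouse at this stage and become abundant after birth.

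The value at hand for each probe and array was the log2 ratio of mutant to wild-type signal, shifted so that each array has a median of 0. Before this shift the array medians were 0.260, 0.764 and 0.186 for mutants 3, 5 and 6. They were 0.004, 0.585 and -0.284 for mutants 1, 4 and 7. No separate level of the mutant or the wild type was used, so neither the amount of a receptor transcript nor the presence of tissue markers could be read, only their ratio. Direction and scale rest on the dye labels and on the Mest probe, whose ratio lay between -2.07 and -1.36 on the 6 arrays (fitted ratio -1.59, SE 0.13, adjusted p = 0.601). Receptor probes had a value on 95.3%, 71.8% and 90.6% of occasions on the arrays of mutants 3, 5 and 6, and on 91.8%, 82.4% and 85.9% on those of mutants 1, 4 and 7. Over the 6 arrays 86.3% of receptor values were present, against 84.1% over all probes. Per-array values below follow that order of mutants, 3, 5 and 6 (mutant in Cy5) and then 1, 4 and 7 (mutant in Cy3).

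Upstream sequence was looked up for the receptor genes in RefSeq's promoter windows for the mouse build GRCm38.p6, cut to the 250 bases before each annotated start. There were 70 such windows for 58 of the 74 genes and 32851 for all 27025 genes listed. The receptor windows were richer in G and C, with a median of 59.0% against 52.4%, and held a median of 9 CpG pairs against 6. A GC box (GGGCGG, either strand) stood in 34 of the 70 receptor windows (48.6%) and in 32.7% of all windows. A TATA box (TATAAA, either strand) stood in 5 (7.14%) against 12.4%, and the cyclic AMP response element TGACGTCA in 0 against 1.55%. The left arm of RE1, TTCAGCACC, the element bound by the repressor REST that keeps many neuronal genes silent outside neurons, stood in 1 receptor window (1.43%), that of Grm2, and in 0.301% of all windows. These matches are descriptions of letters, not of binding, and the motifs do not overlap each other in the windows shown.

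The windows of 3 receptor genes are printed 5′ to 3′ on the gene's strand, because Htr2b and Gabbr1 were the receptors above 0 on all 6 arrays and Grm2 was the gene with the RE1 arm; capitals mark the motifs. Htr2b lies at chr1:86111981-86112230 on the minus strand, Gabbr1 at chr17:37045716-37045965 on the plus strand and Grm2 at chr9:106656110-106656359 on the minus strand.
Htr2b: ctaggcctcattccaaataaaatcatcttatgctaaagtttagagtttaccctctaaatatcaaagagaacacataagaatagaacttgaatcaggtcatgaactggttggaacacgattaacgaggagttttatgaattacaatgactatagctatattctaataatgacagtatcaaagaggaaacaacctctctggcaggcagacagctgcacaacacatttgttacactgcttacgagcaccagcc
Gabbr1: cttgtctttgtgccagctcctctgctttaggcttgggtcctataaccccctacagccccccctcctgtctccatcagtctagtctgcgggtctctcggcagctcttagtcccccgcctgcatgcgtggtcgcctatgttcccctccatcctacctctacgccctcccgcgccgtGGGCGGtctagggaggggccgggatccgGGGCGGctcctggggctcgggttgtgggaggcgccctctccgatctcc
Grm2: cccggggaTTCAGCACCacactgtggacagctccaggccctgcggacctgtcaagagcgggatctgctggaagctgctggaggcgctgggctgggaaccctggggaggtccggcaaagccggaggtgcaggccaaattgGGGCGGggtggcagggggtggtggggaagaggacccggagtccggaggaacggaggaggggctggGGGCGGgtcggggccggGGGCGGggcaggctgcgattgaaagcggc
The Htr2b window had a GC share of 37.6% with 3 CpG pairs and none of the 4 motifs. The Gabbr1 window had 66.0% and 16 CpG pairs with 2 GC boxes. The Grm2 window had 71.2% and 16 CpG pairs, with 3 GC boxes and, at the end far from the start, the RE1 arm.

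No receptor transcript passed the adjusted threshold of 0.05 between mutant and wild-type cortex. Of the 85 probes, 76 (68 genes) had a value on at least 4 arrays with at least 2 per dye and were tested. Limma gave 0 of these 76 an adjusted p under 0.05, as it did 0 of all 17476 probes tested, and the members' adjusted p-values ran from 0.901 to 0.998. At an unadjusted p under 0.05 there were 4 receptor probes (5.26%) beside a background of 3.93% of all probes. Of these, 1 was higher in the mutant, Htr2b, beside 1.6% of all probes. The other 3 were lower, Chrna6, Gria1 and Chrne, beside 2.33%. These shares lie near the background, and none of the 4 is a call. When each array was left out in turn, the unadjusted p stayed under 0.05 in 6 of 6 fits for Chrna6, in 4 for Gria1, in 1 for Chrne and in 0 for Htr2b.

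Receptor ratios as a whole sat close to 0. The median fitted ratio was 0.032 over the 76 receptor probes and 0.0069 over all probes tested, and 44 (57.9%) were above 0 beside 51.3% of all. Per-array medians of the receptor probes were 0.059, 0.089 and 0.016 with the mutant in Cy5 and 0.046, 0 and -0.050 with the mutant in Cy3. Channel subunits (49 tested) had a median of 0.012 with 27 above 0, and G protein-coupled receptors (26 tested) a median of 0.042 with 16 above 0. Setting the Gapdh control spots to 0 in place of the array median lifted the median of all probes to 0.26. An unadjusted p under 0.05 was then found for 8 of the 76 receptor probes, beside 2761 of all 17476 probes. These 8 were all higher in the mutant, in place of 1 higher and 3 lower. Scaling the arrays to the same median absolute value gave 2 higher and 3 lower, beside 793 of all probes in either direction. In tissue of many cell types, fewer cells of a type and less RNA per cell cannot be told apart from these ratios.

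**Figure D1:**
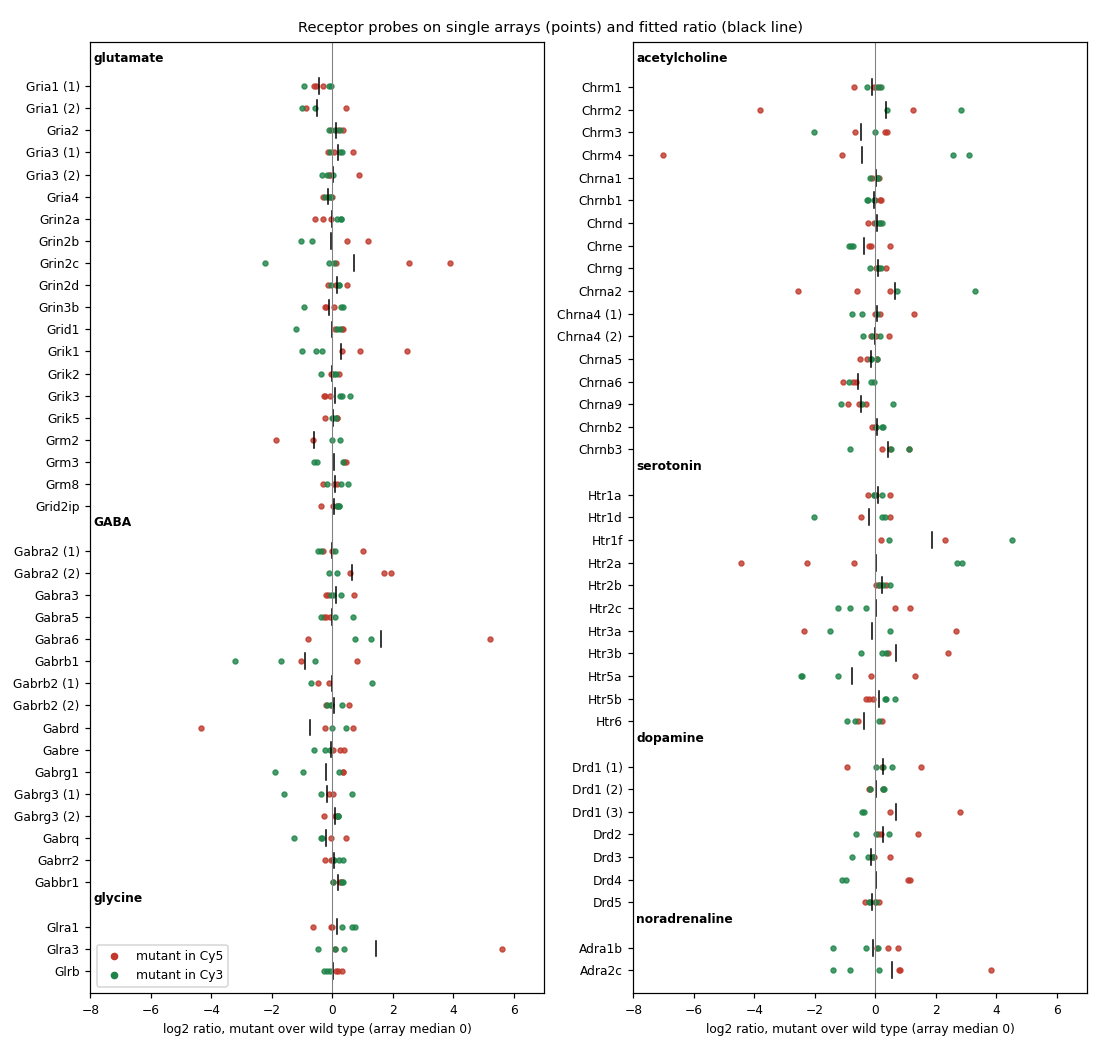
Log2 ratio of mutant over wild type (x axis, array median set to 0) for the 76 tested receptor probes, grouped by transmitter down the page; red points are arrays with the mutant in Cy5, green points arrays with the mutant in Cy3, and the black line is the fitted ratio; numbers in brackets tell probes of a gene apart. Most fitted ratios lie close to 0, with single arrays as far out as -7.01 (Chrm4) and 5.61 (Glra3).

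Precision differed widely between receptors. The fitted ratio had a 95% interval within 2-fold either way for 48 of the 76 probes (63.2%, beside 70.9% of all probes) and within 1.5-fold for 35 (46.1%, beside 51.5%). For glutamate 16 of 20 probes had an interval within 2-fold, for GABA 9 of 16, for glycine 2 of 3, for acetylcholine 11 of 17, for serotonin 4 of 11, for dopamine 5 of 7 and for noradrenaline 1 of 2. A fitted ratio beyond 2-fold was found for 3 probes (3.95%, beside 3.5%), Htr1f, Gabra6 and Glra3, all with wide intervals that include 0.

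**Figure D2:**
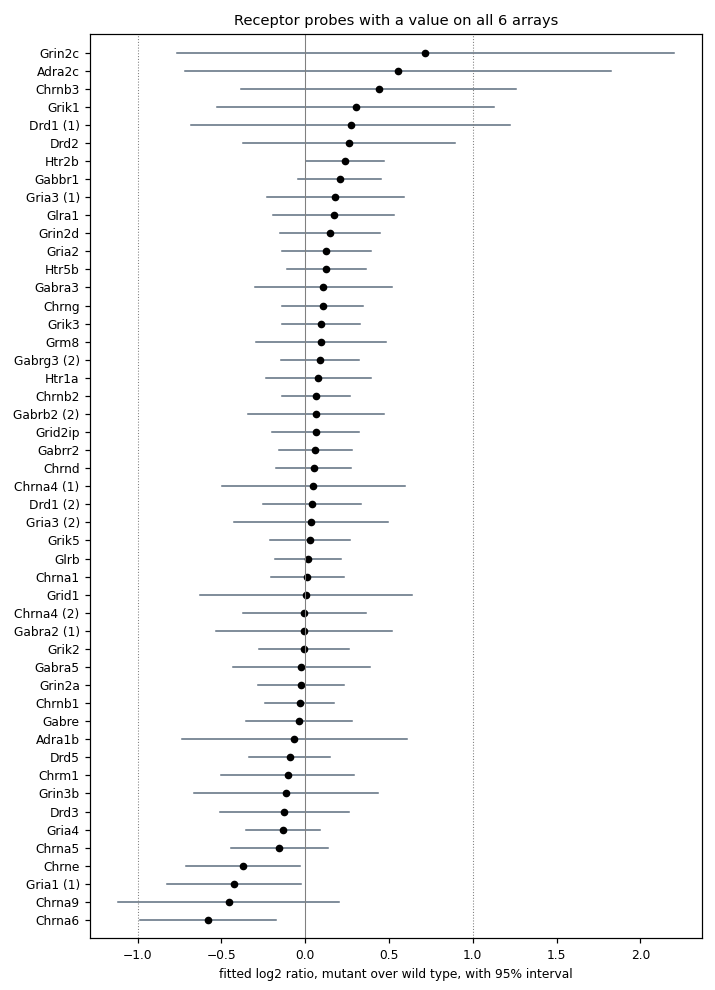
Fitted log2 ratio of mutant over wild type (point) with its 95% interval (bar) for the 49 receptor probes that had a value on all 6 arrays, sorted by ratio; dotted lines mark 2-fold either way. Intervals of Chrna6, Gria1 (1) and Chrne lie below 0 and that of Htr2b just above it, before adjustment for the number of probes.

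Glutamate is the main excitatory transmitter of the cortex. Its 20 probes had 12 fitted ratios above 0 and 8 below, with a median of 0.032 and a median SD over arrays of 0.35, and 94.2% of their values were present. No glutamate probe passed the adjusted threshold and 1 had an unadjusted p under 0.05.

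Among AMPA receptor subunits, which form the fast glutamate-gated cation channels, Gria1 lay lowest. Its 6-array probe read -0.53, -0.31 and -0.62 in the Cy5 orientation and -0.10, -0.046 and -0.95 in the Cy3 orientation, below 0 on every array (fitted ratio -0.43, SE 0.16, 95% interval -0.83 to -0.028, unadjusted p = 0.04, adjusted p = 0.901). A further Gria1 probe, measured on 4 arrays, read 0.46 and -0.86 for mutants 3 and 6 and -0.58 and -1.01 for mutants 1 and 7 (fitted ratio -0.50, SE 0.30). The probes thus had the same sign of fitted ratio, but the array of mutant 3 went opposite ways. Gria4 was below 0 on all 6 arrays with smaller values, -0.30, -0.13 and -0.0080 and then -0.030, -0.24 and -0.081 (fitted ratio -0.13, SE 0.087, adjusted p = 0.901). Gria2, which makes the channel less permeable to calcium, read 0.35, 0.18 and -0.033 and then 0.095, -0.10 and 0.26 (fitted ratio 0.12, SE 0.11). Gria3 had fitted ratios of 0.18 (SE 0.16) and 0.034 (SE 0.18) on its probes. Both Gria3 probes were highest on the array of mutant 5, at 0.67 and 0.87, and the other arrays lay between -0.34 and 0.32.

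NMDA receptor subunits, which form the calcium-permeable channels that need depolarisation to open, showed no shared direction. Grin2d, a subunit of the fetal brain, read 0.12, 0.50 and -0.15 and then 0.23, 0.23 and -0.053 (fitted ratio 0.15, SE 0.12). Grin2b, the other main fetal subunit, read 1.18 and 0.47 for mutants 3 and 6 and -0.66 and -1.05 for mutants 1 and 4, with a fitted ratio of -0.046 (SE 0.18). Its values split by dye: each was above 0 with the mutant in Cy5 and below 0 with the mutant in Cy3. Grin2a, which becomes prominent after birth, split the other way, at -0.035, -0.31 and -0.57 against 0.30, 0.30 and 0.16 (fitted ratio -0.025, SE 0.10). Grin2c, known from the cerebellum, read 2.53, 3.90 and 0.14 and then 0.055, -0.10 and -2.22, again with no overlap of the orientations (fitted ratio 0.72, SE 0.59). Grin3b, a glycine-binding subunit, had a fitted ratio of -0.12 (SE 0.22) with values between -0.95 and 0.34.

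Kainate receptor subunits, which form a further class of glutamate-gated channels, were among the steadier receptors apart from Grik1. Grik2 had a fitted ratio of -0.0099 (SE 0.11) with values between -0.38 and 0.21, and Grik5, which needs a partner subunit, 0.029 (SE 0.096) with values between -0.25 and 0.16. Their 95% intervals, -0.28 to 0.26 and -0.21 to 0.27, leave room for changes of up to about that size in either direction. Grik3 read -0.080, -0.24 and -0.28 and then 0.32, 0.26 and 0.60 (fitted ratio 0.096, SE 0.093), and Grik1 read 0.91, 2.47 and 0.33 and then -1.02, -0.35 and -0.54 (fitted ratio 0.30, SE 0.33). In both the orientations did not overlap, in opposite senses. The delta subunit gene Grid1 had 5 arrays between 0.098 and 0.37 and the array of mutant 1 at -1.19 (fitted ratio 0.0066, SE 0.25). Grid2ip, the scaffold, had 5 arrays between 0.031 and 0.23 and the array of mutant 6 at -0.39 (fitted ratio 0.063, SE 0.10).

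The metabotropic glutamate receptors on the array, Grm2, Grm3 and Grm8, all belong to the groups that lower cyclic AMP. Grm2 read -1.86 and -0.65 for mutants 5 and 6 and -0.0040 and 0.24 for mutants 1 and 7, with no value on the other arrays (fitted ratio -0.61, SE 0.27, 95% interval -1.41 to 0.19, adjusted p = 0.901). Grm3 read 0.40 and 0.44 for mutants 3 and 6 and -0.61, -0.51 and 0.35 in the Cy3 orientation (fitted ratio 0.067, SE 0.20). Grm8, the receptor with all 6 values, read 0.065, 0.16 and -0.31 and then 0.30, -0.18 and 0.54 (fitted ratio 0.095, SE 0.15). Values of Grm2 and Grm3 did not overlap between orientations, and those of Grm8 did.

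GABA receptors gave 16 tested probes of 19, with 8 fitted ratios above 0 and 8 below, a median of -0.00080 and a median SD over arrays of 0.59. Values were present in 80.7% of cases, and no probe had an unadjusted p under 0.05. Gabbr1, which encodes the ligand-binding subunit of the G protein-coupled GABA-B receptor, was the GABA gene above 0 on every array. It read 0.26, 0.28 and 0.016 in the Cy5 orientation and 0.0090, 0.33 and 0.34 in the Cy3 orientation (fitted ratio 0.21, SE 0.099, 95% interval -0.044 to 0.46, unadjusted p = 0.089, adjusted p = 0.901). A pair of its values, those of mutants 6 and 1, are hardly above 0.

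GABA-A receptors are chloride channels built of alpha, beta and other subunits. The probes of Gabra2, an alpha subunit common in the developing brain, disagreed in sign. The 6-array probe read -0.0020, 1.02 and -0.31 and then -0.46, 0.093 and -0.39 (fitted ratio -0.0076, SE 0.21). Its other probe read 1.93, 1.70 and 0.59 and then 0.15 and -0.12 for mutants 1 and 4 (fitted ratio 0.66, SE 0.26, unadjusted p = 0.056, adjusted p = 0.901). The orientations of that probe did not overlap, with a mean of 1.41 in Cy5 and 0.019 in Cy3. The array of mutant 5 was high on both probes, while those of mutants 3 and 6 were high on the 5-array probe alone. Gabra3 and Gabra5, further alpha subunits, had fitted ratios of 0.11 (SE 0.16) and -0.024 (SE 0.16), with values between -0.21 and 0.73 and between -0.36 and 0.68. Gabra6, known from cerebellar granule cells, read -0.82 and 5.21 for mutants 3 and 6 and 0.75 and 1.28 for mutants 1 and 7 (fitted ratio 1.61, SE 1.32, 95% interval -2.33 to 5.55), so that its high fitted ratio comes with an interval on both sides of 0.

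Beta, gamma and the rarer subunits were likewise split. Gabrb1 read -1.04 and 0.81 for mutants 3 and 6 and -3.21, -0.58 and -1.69 in the Cy3 orientation, the lowest fitted ratio of the receptors at -0.89 (SE 0.52, 95% interval -2.29 to 0.50). Gabrb2 had tested probes at 0.0060 (SE 0.49) and 0.064 (SE 0.16). Gabrg3 had a probe at 0.078, 0.16 and -0.26 and then 0.18, 0.19 and 0.19 (fitted ratio 0.088, SE 0.093). Its other probe read -0.097 and 0.027 for mutants 3 and 6 and -0.39, 0.64 and -1.59 in the Cy3 orientation (fitted ratio -0.17, SE 0.39). The steadier of the Gabrg3 probes was above 0 on 5 of 6 arrays and the other on 2 of 5. Gabrg1 read 0.35 and 0.36 for mutants 3 and 6 and -1.89, 0.21 and -0.96 in the Cy3 orientation (fitted ratio -0.20, SE 0.37), and Gabrq, the theta subunit, 0.46 and -0.054 and then -0.36, -0.33 and -1.25 (fitted ratio -0.20, SE 0.20). Gabre, the epsilon subunit, had a fitted ratio of -0.037 (SE 0.12) and Gabrr2, a rho subunit known from the retina, 0.061 (SE 0.086), all 4 of these genes with orientations that did not overlap. Gabrd, the delta subunit of receptors outside synapses, had a value of -4.35 on the array of mutant 5 and values between -0.24 and 0.69 on 4 others (fitted ratio -0.72, SE 0.91).

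Glycine receptors are chloride channels as well, and all 3 tested probes had a fitted ratio above 0, with a median of 0.17. Glrb, the beta subunit that anchors the receptor to gephyrin, read 0.20, 0.31 and 0.11 and then -0.28, -0.066 and -0.17 (fitted ratio 0.017, SE 0.079, 95% interval -0.18 to 0.21). Glra1, the adult alpha subunit, read -0.040, -0.024 and -0.64 and then 0.66, 0.33 and 0.74 (fitted ratio 0.17, SE 0.14). These genes split by dye in opposite senses. Glra3, a further alpha subunit, had a value of 5.61 on the array of mutant 5 and lay between -0.46 and 0.39 on 4 others (fitted ratio 1.45, SE 0.95, 95% interval -1.10 to 4.00).

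Acetylcholine receptors gave 17 tested probes of 19, with 8 fitted ratios above 0 and 9 below, and a median of -0.0057. Of the 4 receptor probes with an unadjusted p under 0.05, Chrna6 and Chrne belong here. Chrna6, a neuronal nicotinic alpha subunit known from midbrain dopamine neurons, had the smallest p of the receptors. It read -1.05, -0.65 and -0.72 with the mutant in Cy5 and -0.15, -0.048 and -0.87 with the mutant in Cy3 (fitted ratio -0.58, SE 0.16, 95% interval -0.98 to -0.18, unadjusted p = 0.013, adjusted p = 0.901). All 6 values lay below 0, those of mutants 1 and 4 by little. Its genomic neighbour among the receptors is Chrnb3, an accessory beta subunit that can assemble with it, which read 1.13, 0.22 and 0.50 and then 0.51, 1.11 and -0.84 (fitted ratio 0.44, SE 0.33). These neighbours lay on opposite sides of 0 on 5 of the 6 arrays, and the array of mutant 7 was below 0 for both.

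Other neuronal nicotinic subunits stayed nearer 0 or varied more. Chrnb2, the common neuronal beta subunit, read -0.017, 0.035 and -0.12 and then 0.21, 0.030 and 0.25 (fitted ratio 0.065, SE 0.081). Chrna4, its usual partner, had probes of opposite sign at 0.049 (SE 0.22) and -0.0057 (SE 0.15), both far within their error. Chrna5, an accessory subunit, read 0.046, -0.51 and -0.27 and then -0.12, 0.063 and -0.14 (fitted ratio -0.16, SE 0.11). Chrna9, the subunit of cochlear hair cells, was below 0 on 5 of 6 arrays, at -0.53, -0.29 and -0.90 and then -1.14, 0.57 and -0.45 (fitted ratio -0.46, SE 0.26, 95% interval -1.12 to 0.20, adjusted p = 0.901). Chrna2 ranged from -2.55 to 3.29 over 5 arrays (fitted ratio 0.65, SE 0.64).

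Muscle nicotinic subunits, best known from the neuromuscular junction, had a small spread, with a median SD over arrays of 0.18. Chrna1, the alpha subunit, had a fitted ratio of 0.012 (SE 0.086), Chrnb1 -0.033 (SE 0.081), Chrnd 0.050 (SE 0.088) and Chrng, the fetal gamma subunit, 0.10 (SE 0.097). The exception was Chrne, the adult epsilon subunit, at -0.19, -0.15 and 0.49 with the mutant in Cy5 and -0.73, -0.79 and -0.85 with the mutant in Cy3 (fitted ratio -0.37, SE 0.13, 95% interval -0.71 to -0.034, unadjusted p = 0.037, adjusted p = 0.901). Every Cy3 value of Chrne lay below every Cy5 value, and with the Cy5 arrays alone the ratio was 0.050. Its low fitted ratio therefore rests on the arrays of mutants 1, 4 and 7.

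Muscarinic receptors, the G protein-coupled receptors for acetylcholine, had the widest spread, with a median SD over arrays of 1.92 among 4 tested probes. Chrm4, which couples to Gi, read -1.09 and -7.01 for mutants 3 and 5 and 2.58 and 3.11 for mutants 4 and 7 (fitted ratio -0.42, SE 1.21). Its orientations did not overlap, and that offset is part of its SD. Chrm2, also coupled to Gi, read 1.25 and -3.81 and then 0.38 and 2.84 for the same arrays (fitted ratio 0.37, SE 1.10). In both Chrm4 and Chrm2 the array of mutant 5 was lowest and that of mutant 7 highest. Chrm3, coupled to Gq, read 0.32, -0.67 and 0.37 and then 0 and -2.01 for mutants 4 and 7 (fitted ratio -0.48, SE 0.45). Chrm1, also coupled to Gq, had a steady probe at 0.14, -0.70 and -0.036 and then 0.18, 0.054 and -0.26 (fitted ratio -0.10, SE 0.16). The untested Chrm1 probe read -1.55, -2.64 and -4.72 in the Cy5 orientation and 3.70 for mutant 1.

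**Figure D3:**
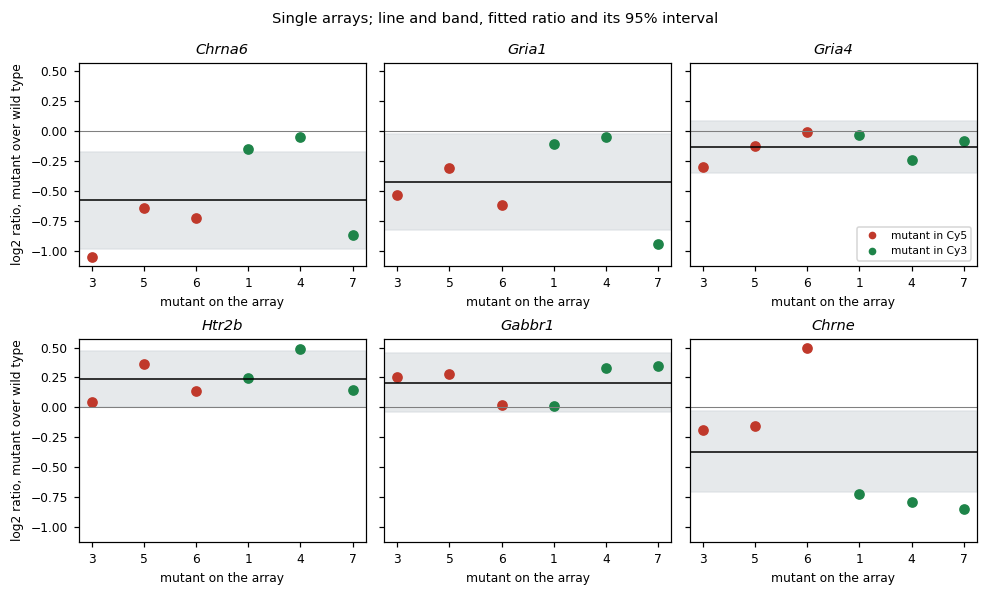
Log2 ratio of mutant over wild type on each array (point, red with the mutant in Cy5, green with the mutant in Cy3) for 6 receptor probes: those with an unadjusted p under 0.05 or with the same sign on all 6 arrays; the x axis names the mutant, the line is the fitted ratio and the band its 95% interval. With array medians set to 0, Chrna6, Gria1 and Gria4 lie below 0 on every array and Htr2b and Gabbr1 above it. The Cy3 values of Chrne lie below its Cy5 values.

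A ratio of unchanging sign over the arrays that measured it was found for 6 of the 76 tested probes (7.89%, beside 5.57% of all probes): Chrna6, Gria1, Gria4, Gabbr1, Htr2b and, on 4 arrays, Htr1f. Among probes with 6 values, 2 of 49 receptor probes were above 0 on all arrays (4.08%, beside 2.52%) and 3 of 49 below 0 on all (6.12%, beside 3.07%). These signs depend on setting the array medians to 0. Without that shift, Chrna6 and Gria1 lay above 0 for mutants 4 and 5, and Gria4 for mutants 4, 5 and 6. Htr2b then lay below 0 for mutant 7, while Gabbr1 and Htr1f kept their sign.

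Serotonin receptors gave 11 tested probes of 15, with 7 fitted ratios above 0 and 4 below, a median of 0.041 and a median SD over arrays of 1.03. They had the smallest share of values, 74.4%, and an SD above 1 for 7 of 11 probes, beside 22.8% of all probes. Htr2b, a Gq-coupled receptor known for its part in heart development, read 0.043, 0.36 and 0.14 with the mutant in Cy5 and 0.25, 0.49 and 0.14 with the mutant in Cy3 (fitted ratio 0.24, SE 0.092, 95% interval 0.0055 to 0.47, unadjusted p = 0.046, adjusted p = 0.901). All 6 values were above 0, and the interval came within 0.0055 of it. Htr1f, a Gi-coupled receptor, read 2.33 and 0.18 for mutants 3 and 6 and 4.51 and 0.47 for mutants 1 and 7 (fitted ratio 1.87, SE 0.91, 95% interval -0.86 to 4.60, adjusted p = 0.901). On the array of mutant 5 its deposited value was the ceiling of the data, 16.61, which was treated as missing, and none was given for mutant 4.

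The Gi-coupled Htr1a, an early serotonin receptor of the forebrain, read 0.50, -0.23 and 0.035 and then 0.22, -0.042 and -0.026 (fitted ratio 0.077, SE 0.12). Htr5a read -0.13 and 1.30 for mutants 3 and 6 and -2.43, -2.46 and -1.24 in the Cy3 orientation (fitted ratio -0.75, SE 0.32, 95% interval -1.60 to 0.098, unadjusted p = 0.071, adjusted p = 0.901). Htr5b read -0.065, -0.31 and -0.22 and then 0.34, 0.35 and 0.66 (fitted ratio 0.12, SE 0.093). These relatives split by dye in opposite senses, as did the Gq-coupled receptors Htr2c and Htr2a. Htr2c read 1.16 and 0.66 for mutants 3 and 6 and -0.82, -1.24 and -0.31 in the Cy3 orientation (fitted ratio 0.029, SE 0.21). Htr2a read -0.69, -4.44 and -2.25 and then 2.87 and 2.70 for mutants 1 and 7 (fitted ratio 0.041, SE 0.64). For Htr2c and Htr2a the fitted ratio, which averages the orientations, is near 0 although every single array lies at least 0.31 away from it.

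The serotonin-gated cation channel genes Htr3a and Htr3b lie side by side in the genome. Htr3b read 2.42 and 0.43 for mutants 3 and 6 and 0.22, -0.47 and 0.35 in the Cy3 orientation (fitted ratio 0.70, SE 0.39, 95% interval -0.35 to 1.74). Htr3a read -2.36 and 2.66 and then 0.47 and -1.49 for mutants 1 and 4 (fitted ratio -0.093, SE 1.15). On the array of mutant 3 the neighbours lay far from 0 in opposite directions. The Gs-coupled Htr6 had a fitted ratio of -0.36 (SE 0.27) and the Gi-coupled Htr1d of -0.19 (SE 0.52).

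Dopamine receptors gave 7 tested probes, 5 above 0 and 2 below, with a median of 0.042. Drd1, the main Gs-coupled receptor, had fitted ratios of 0.27 (SE 0.38), 0.042 (SE 0.12) and 0.69 (SE 0.49) on its 3 probes, the same sign with different precision. The Drd1 probe with the smallest error read 0.25, -0.21 and -0.16 and then 0.28, -0.17 and 0.26, so that arrays lay on both sides of 0. The Gi-coupled Drd2 read 0.079, 1.43 and 0.18 and then 0.038, 0.46 and -0.62 (fitted ratio 0.26, SE 0.25), and Drd3 -0.095, 0.48 and -0.053 and then -0.069, -0.24 and -0.78 (fitted ratio -0.13, SE 0.15). Drd5, coupled to Gs, read 0.11, -0.32 and -0.0060 and then 0.034, -0.19 and -0.18 (fitted ratio -0.092, SE 0.096). Drd4 followed the dye most closely of all receptors, at 1.17 and 1.08 for mutants 3 and 6 and -1.11 and -0.98 for mutants 1 and 4. Its fitted ratio of 0.040 (SE 0.10) is the small remainder of these large opposite values.

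Noradrenaline receptors were represented by the Gq-coupled Adra1b and the Gi-coupled Adra2c. Adra2c read 3.83, 0.78 and 0.82 and then 0.12, -0.84 and -1.40 (fitted ratio 0.55, SE 0.50), and Adra1b 0.052, 0.44 and 0.75 and then -0.31, 0.086 and -1.41 (fitted ratio -0.065, SE 0.27). Every value of Adra2c with the mutant in Cy5 exceeded every value with the mutant in Cy3.

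Many receptor ratios followed the dye orientation. The orientations did not overlap for 27 of the 76 probes (35.5%, beside 29.7% of all probes). The Cy5 values were the higher for 17 (22.4%, beside 14.5%) and the lower for 10 (13.2%, beside 15.3%). The dye term of the fit had an unadjusted p under 0.05 for 20 receptor probes (26.3%, beside 20% of all probes). By transmitter these were 5 of 20 for glutamate, 3 of 16 for GABA, 2 of 3 for glycine, 4 of 17 for acetylcholine, 4 of 11 for serotonin, 1 of 7 for dopamine and 1 of 2 for noradrenaline. After adjustment limma gave 0 of 76 receptor probes a dye effect, beside 0.269% of all probes, and the nearest was Drd4 (adjusted p = 0.077). Whether brightness of the spots moves with these offsets was not tested, since no intensity was used.

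**Figure D4:**
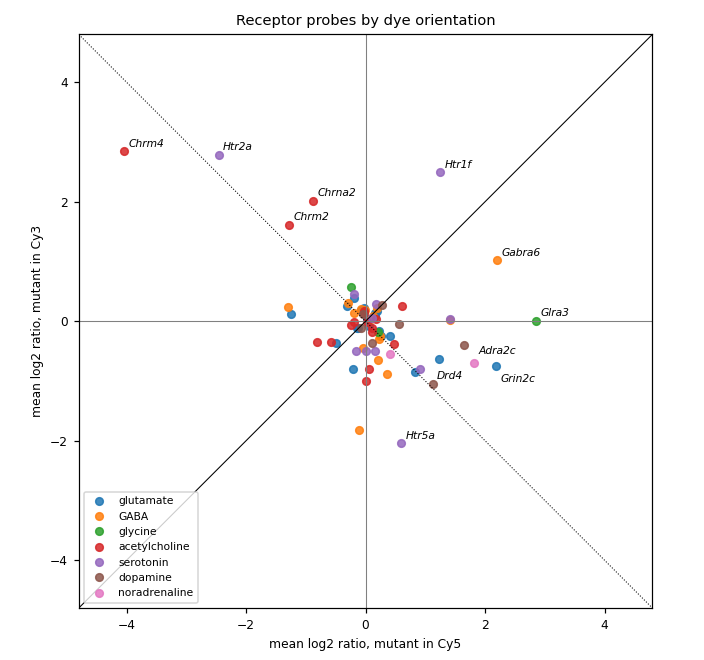
Mean log2 ratio of mutant over wild type in the Cy5 orientation (x axis, arrays of mutants 3, 5 and 6) against that in the Cy3 orientation (y axis, arrays of mutants 1, 4 and 7) for the 76 tested receptor probes, coloured by transmitter. A genotype difference free of dye effects would put a probe on the solid diagonal and a pure dye effect on the dotted one; Chrm4, Htr2a and Drd4 lie near the dotted line, and Htr1f and Gabra6 lie above 0 in both orientations.

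Spread over arrays differed by kind of receptor. The SD was taken without removing the dye term, so offsets between the orientations count as spread. The median SD was 0.52 over the receptor probes, against 0.41 over all probes, and 21 (27.6%, beside 22.8%) had an SD above 1. G protein-coupled receptors had a median SD of 0.78 and channel subunits of 0.43. Among tested probes only, a value on all 6 arrays was found for 49 of 76 receptor probes (64.5%, beside 77.4%). Over all probes, tested or not, 86.3% of receptor values were present, against 84.1%. A single array stood apart from the others by Dixon's criterion for 6 receptor probes (7.89%, beside 9.03% of all probes), a share near the background. By transmitter the median SD was 0.35 for glutamate, 0.59 for GABA, 0.52 for glycine, 0.40 for acetylcholine, 1.03 for serotonin, 0.68 for dopamine and 1.29 for noradrenaline. These differences between transmitters were not tested.

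**Figure D5:**
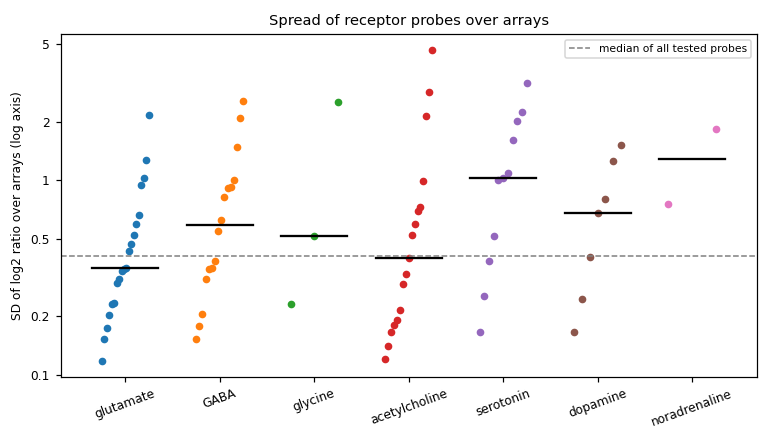
SD over arrays of the log2 ratio of mutant over wild type (log axis) for each tested receptor probe, by transmitter; black bars are the group medians and the dashed line is the median of all tested probes, 0.41. Serotonin receptors have a median of 1.03 and glutamate receptors one of 0.35, with single probes of acetylcholine and serotonin receptors above 3. Offsets between the dye orientations are part of this SD.

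Genes with more than a single probe show how far probes for the same receptor agreed. Of 7 genes with more than 1 tested probe, 3 had fitted ratios of opposite sign, Chrna4, Gabra2 and Gabrg3. Drd1, Gabrb2, Gria1 and Gria3 had the same sign throughout. The probes of Gabra2 stood furthest apart, at 0.66 (SE 0.26) and -0.0076 (SE 0.21), and those of Drd1 ranged from 0.042 (SE 0.12) to 0.69 (SE 0.49).

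The 9 untested probes leave 6 genes without a test. Gabra4 had no value on any array. Chrna7, a neuronal alpha subunit, had a value on the array of mutant 1 alone, at -2.81. The Gi-coupled Htr1b read 4.06 and -2.14 for mutants 3 and 5 and 4.45 for mutant 7. The Gs-coupled Htr4 read 0.39 for mutant 6 and -0.39 for mutant 1, and Htr7, coupled likewise, 5.50 for mutant 3 and -1.86 and -2.48 for mutants 1 and 4. Gabrr1, a rho subunit, read 0.030 and 1.20 for mutants 3 and 6 and -0.34 for mutant 1. The further untested probes were those of Chrm1, already given, of Gabrb2 (-0.79 and 0.49 for mutants 3 and 6, 1.22 for mutant 7) and of Htr2c (-0.61 and -5.03 for mutants 3 and 5, 6.37 for mutant 7). Most of these genes had arrays on both sides of 0.

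Receptor genes that lie next to each other formed 10 pairs: Chrnd and Chrng, Gabra6 and Gabrb2, Gria2 and Glrb, Gabrr2 and Gabrr1, Gabrg1 and Gabra2, Gabra4 and Gabrb1, Gabrg3 and Gabra5, Chrnb3 and Chrna6, Htr3a and Htr3b, and Gabra3 and Gabrq. Chrnd and Chrng, muscle subunits expressed together, had fitted ratios of 0.050 and 0.10. Gria2 and Glrb had 0.12 and 0.017. Chrnb3 and Chrna6 had 0.44 and -0.58, and Gabra3 and Gabrq 0.11 and -0.20, opposite in sign. Whether the ratios of neighbours are related was not tested.

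Genes that make, release and clear the transmitters, taken from lists of known pathway members, likewise gave 0 tested genes past the adjusted threshold. With 1 value per gene, 3.96% of all genes had an unadjusted p under 0.05 and 50.2% a fitted ratio above 0. For glutamate synthesis, release and uptake, 7 of 10 tested genes were above 0 and 0 had an unadjusted p under 0.05, with a median of 0.061. For GABA and glycine, 6 of 9 were above 0 (median 0.079, 0 with an unadjusted p under 0.05), and for receptor scaffolds and auxiliary subunits 14 of 22 (median 0.048, 0 likewise). Array means of the scaffold list split by dye, at 0.12, 0.13 and 0.044 and then -0.11, -0.019 and -0.063. Gabarap, which binds GABA-A receptors, had the smallest p of the scaffolds and was below 0 on all 6 arrays (fitted ratio -0.15, SE 0.070, adjusted p = 0.902).

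For acetylcholine, 6 of 7 genes were above 0 (median 0.21). Array means of this list split by dye, at 0.46, 0.42 and 0.22 and then 0.092, -0.066 and -0.091. Of its genes, 1 had an unadjusted p under 0.05: Musk, the kinase that gathers receptors at the muscle synapse. Musk read 0.24, 0.41 and 0.095 and then 0.20, 0.15 and 0.14 (fitted ratio 0.21, SE 0.080, adjusted p = 0.902). Monoamine genes had 3 of 9 above 0 (median -0.080), and 1 with an unadjusted p under 0.05: Gch1, which makes the cofactor for dopamine and serotonin synthesis, at 0.24 and -0.30 for mutants 3 and 6 and -1.75, -2.35 and -2.28 in the Cy3 orientation (fitted ratio -1.09, SE 0.15, adjusted p = 0.902). The Gch1 values also split by dye.

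Markers of the cell types a dissected cortex can hold were read as ratios. Markers of cortical progenitors and neurons had a median of -0.0071 (6 of 14 above 0, array means from -0.18 to 0.11). Markers of the ventral telencephalon and GABA neurons had a median of 0.067 (7 of 11 above 0), and their array means followed the dye, at 0.15, 0.28 and 0.38 with the mutant in Cy5 and -0.16, -0.20 and -0.52 with the mutant in Cy3. Diencephalon markers had a median of 0.20 (5 of 6 above 0), with Tcf7l2 above 0 on all 6 arrays (fitted ratio 0.55, SE 0.14, adjusted p = 0.902). The diencephalon array means did not overlap between orientations either. They were 0.51, 0.44 and 0.19 with the mutant in Cy5 and -0.12, -0.11 and 0.17 with the mutant in Cy3. Red blood cell markers had a median of -0.24 (1 of 7 above 0, array means from -0.41 to -0.061, below 0 on all 6 arrays), and 3 of the 7, Hbb-bh1, Hbb-y and Alas2, had an unadjusted p under 0.05, lower in the mutant. Medians were -0.0063 for Cajal-Retzius cells (3 of 7 above 0), -0.031 for endothelium (4 of 8), 0.047 for meninges and mesenchyme (4 of 7) and -0.049 for microglia and macrophages (2 of 6). Array means of endothelium also split by dye, at -0.020, 0.030 and 0.24 and then -0.37, -0.24 and -0.21. The part of these differences in the receptor ratios was not tested.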

How the data were processed

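Each of 6 spotted arrays gave, per probe, a deposited log2 value comparing the dyes, with 1 mutant and 1 wild-type E12.5 cortex as the samples. How the authors scanned, background-corrected, filtered and normalized the deposited log2 values is not given in the sources used here, and neither are their direction and log base, taken here as base 2 with Cy5 on top. Per array, 16422 to 19564 of 21766 probes had a value, and no intensities were used. With no counts, the number of arrays limits the precision. The mutants are separate embryos and the wild types are shared, so the spread contains embryo, dye and hybridisation.

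Values at the ceiling of 16.61 (590) were treated as missing, and 232 Gapdh control spots left out. The sign of arrays with the mutant in Cy3 was flipped and array medians were set to 0. The model (limma 3.58.1, R 4.3.3, lmFit and eBayes) covered probes with at least 4 values and at least 2 in each orientation, with a dye term and the shared wild type as random block (duplicateCorrelation, 0.246). P-values are two-sided and adjusted by Benjamini-Hochberg over all 17476 probes, threshold 0.05. For gene lists, probes of a gene were averaged first. The fit was also run on data simulated from its own estimates with normal noise, which cannot show that the model suits these arrays. Symbols come from the platform annotation (16632 probes with 1 symbol, 139 with several, 4995 with none), and all 74 receptor genes matched the RefSeq table by Entrez identifier.

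The receptors, their classes and all lists were chosen with earlier results of these data known. Per-array values were planned for up to 4 probes per receptor class with the smallest p, for unchanging signs and for genes whose probes disagree. Up to 3 genes per list could be named. The text departs from this plan. Further probes are given array by array, among them those of Htr1a, Htr2a, Htr3a and Drd4. The Drd1 probe with the smallest p of the dopamine receptors is given by its fitted ratio alone, and Grin3b by its range. Alternatives covered the block, dye term, centring, scaling, missing values, moderation, 1 value per gene, and arrays, wild types and orientations left out. A further alternative left out probes with ratios of small whole numbers.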

Additional observations from a re-analysis of the deposited data

Results flagged for a closer look

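In 6 of the 76 tested receptor probes (7.89%, beside 9.03% of all probes) a single array stood apart from the rest by Dixon's criterion, where chance gives about 1 in 20. The share lies near that of all probes. Of these, 3 were on the array of mutant 5, 2 on that of mutant 6 and 1 on that of mutant 1. Gabrd, a GABA-A delta subunit, read -4.35 on the array of mutant 5, with the others between -0.24 and 0.69. Glra3, a glycine receptor alpha subunit, read 5.61 there, with the others between -0.46 and 0.39. A probe of the AMPA subunit Gria3 read 0.87 there, with the others between -0.34 and 0.040. A probe of the GABA-A subunit Gabrg3 read -0.26 on the array of mutant 6, with the others between 0.078 and 0.19. The scaffold Grid2ip read -0.39 there, with the others between 0.031 and 0.23. The delta receptor Grid1 read -1.19 on the array of mutant 1, with the others between 0.098 and 0.37.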

How the results depend on the processing

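The count of receptor probes past the adjusted threshold was 0 under all 26 alternatives run. That of all probes tested was 0 in each as well, so this count cannot tell receptors from other probes. The count at an unadjusted p under 0.05 was 4 of 76 as reported, beside 687 of all 17476 probes. It was 0 without centring (223 of all probes), 8 with Gapdh centring (2761 of all) and 2 without moderation (902 of all). Without both arrays of wild type 2 it was 2 of 68, beside 534 of 17388. Without those of wild type 9 it was 7 of 73, beside 992 of 17401. On the Cy3 arrays alone it was 14 of 77, beside 2038 of 18699. With single arrays left out it ran from 2 (without mutant 1, beside 769 of 18732) to 6. The count of 6 came without mutant 3 (577 of 18667) and without mutant 6 (1221 of 18285). Without the replicate block of the shared wild type it was 5, beside 1119 of all probes, and 0 again passed adjustment. The median ratio, 0.032 as reported, was 0.28 without centring and 0.28 with Gapdh centring, where the median of all probes was 0.26 in both, -0.018 without wild type 2, 0.096 on the Cy5 arrays alone and -0.044 on the Cy3 arrays alone. Leaving out single arrays gave 0.018 to 0.091, the highest without mutant 6. The dye count, 0 as reported (47 of all probes), was 6 without centring (658 of all) and 1 at a threshold of 0.10 (402 of all). It was 0 whichever single array was left out, where at most 2 of all probes passed. Chrne reversed to 0.050 on the Cy5 arrays alone. The causes were not tested.

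Chrna6 had an unadjusted p under 0.05 in 21 of 25 alternatives (ratios -0.81 to -0.32, adjusted p 0.299 to 1), Gria1 in 15 (-0.55 to -0.17, lost without mutant 3 or 6), Chrne in 12 and Htr2b in 10 (0.14 to 0.50). With both arrays of a wild type left out, the block correlation could not be estimated and 0.246 was kept. Neither spot brightness nor background could be examined, and 6 arrays limit what can be seen.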
